A study of Mus musculus with 9 samples.

Results

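The unfolded protein response and protein folding in the endoplasmic reticulum (ER) were followed through 40 genes of the 35013 gene symbols that each deposited table lists. The genes were taken by name from a list that was written with earlier results of these data known. The rule itself uses no measured value, and all 40 were found in both tables. Ero1l of the list stands in the tables under its current symbol Ero1a. The list holds 3 stress sensors, 5 transcription factors, 2 feedback regulators, 8 ER chaperones, 6 disulfide foldases and oxidases, 4 DnaJ co-chaperones, 8 genes of ER-associated degradation (ERAD) and 4 subunits of the translocon and its partners.

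Proteins that are secreted or inserted in membranes enter the ER through the translocon and fold there with the help of chaperones and disulfide isomerases. When unfolded protein accumulates, the sensors IRE1, PERK and ATF6 act through the factors XBP1, ATF4 and cleaved ATF6, and genes for chaperones, foldases and degradation of misfolded protein are transcribed. Goblet, Paneth and enteroendocrine (EEC) cells of the intestine secrete mucins, antimicrobial proteins and hormones, and goblet and Paneth cells are known for an extensive rough ER.

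The libraries are bulk RNA-Seq of epithelial cells from the small intestine of Neurog3Cre-FoxO1 f/f; Rosa26tdtomato (NFKO) mice, which were 4 to 6 weeks old by the study's methods. In these mice Cre is driven by Neurog3, so that FoxO1 is deleted and tdTomato is switched on in the descendants of Neurog3 progenitors. Sorting with antibodies against CD24 and Epcam gave populations of 3 libraries each: CD24negTomato+ cells, CD24+Tomato+ cells, and Tomatoneg cells, which are epithelial cells without that lineage mark. Every group came from NFKO mice and no mice with intact FoxO1 are among the 9 libraries, so the effect of descent from Neurog3 progenitors and the effect of losing FoxO1 cannot be told apart here. The labels number the biological replicates but do not say whether equal numbers are the same mice or the same sort. The same 3 Tomatoneg libraries stand in both tables, scaled once beside the CD24negTomato+ and once beside the CD24+Tomato+ libraries. The 2 comparisons therefore share their controls, and values were tested only within a table. P values measure the spread between libraries that are labelled as biological replicates, and how much of that spread is technical is not known.

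Read numbers were estimated from the total of each library, with its most common low value taken as 1 read. By this estimate Tomatoneg libraries were the shallowest, with 19157916 to 24368400 reads. CD24+Tomato+ libraries had 27723742 to 39233343 and CD24negTomato+ libraries 29962312 to 37132884. Only 23.0% to 44.5% of low values were whole multiples of that value, so these numbers are approximate. By the same estimate a count of 3 reads is a normalized count of 2.10 to 4.29. This covers counting error only, and no member was below it in any library. Tomatoneg replicate 1 stood apart, with 13025 genes above 0 against 15644 to 18530 in the others, and it had the lowest value of its group for 21 of the 40 members (20 as scaled in the second table). Epcam, the epithelial marker of the sort, had 20915 to 37673 normalized counts in all libraries and the leukocyte marker Ptprc 37.9 to 222. Foxo1, the deleted gene, was measured over the whole gene. In replicates 1, 2 and 3, CD24negTomato+ libraries held 467, 274 and 371 normalized counts of it, and Tomatoneg libraries 695, 518 and 424 (log2 fold change -0.56, SE 0.33, limma adjusted P = 0.427). CD24+Tomato+ libraries held 319, 193 and 201, against 748, 529 and 444 (log2 fold change -1.27, SE 0.36, limma adjusted P = 0.0579, and 0.0219 with the replicate number as a block). It was lower than the Tomatoneg library of the same number in all 3 pairs of both tables.

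Promoter sequences were examined for the letters that factors of the response are known to bind. In RefSeq windows of GRCm38.p6 that run from 250 bases before to 50 after a transcription start, 34 of the 40 genes had a window. The ER stress response element (ERSE), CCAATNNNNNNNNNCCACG, is known to bind ATF6 and XBP1 with NF-Y. On either strand, it was found in 39 of 32851 windows (0.119%) and in the windows of 9 of the 34 genes (26.5%): Hspa5, Calr, Canx, Hsp90b1, Creld2, Pdia6, Dnajc3, Syvn1 and Derl3. Hsp90b1 held 2 copies. ERSE-II, ATTGGNCCACG, was in 0.0365% of all windows and in those of Herpud1 and Dnajb11. The letters TGCCACGT, known to bind CREB3 family factors, were in 0.612% of all windows and in those of P4hb and Pdia5. The element TGACGTGG of XBP1 and the element TGATGNAAT of ATF4 were in 0.676% and 0.965% of all windows and in none of the members' windows, which says only that these letters are not in these windows. The elements share letters, since ERSE, ERSE-II and TGCCACGT all hold CCACG. A match is a description of the sequence and not a bound site.

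Hspa5 was taken as the classical target. Pdia6, Dnajc3, Creld2 and Herpud1 were taken as members that were higher in a comparison below (all but Pdia6 only with the replicate block). Canx was taken as one with an element and a negative log2 fold change in CD24+Tomato+ cells (-0.75), which did not pass with or without the block. The matches of these 6 genes are shown 5′ to 3′ with the matched letters in capitals and 8 bases on each side.
Hspa5 ERSE, chr2:34772017-34772051, plus strand: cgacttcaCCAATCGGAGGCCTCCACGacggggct
Pdia6 ERSE, chr12:17266483-17266517, plus strand: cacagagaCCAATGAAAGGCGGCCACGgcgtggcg
Dnajc3 ERSE, chr14:118937819-118937853, plus strand: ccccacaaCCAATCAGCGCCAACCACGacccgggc
Creld2 ERSE, chr15:88819512-88819546, minus strand: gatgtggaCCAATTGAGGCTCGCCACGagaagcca
Canx ERSE, chr11:50325792-50325826, minus strand: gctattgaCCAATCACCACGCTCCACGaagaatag
Herpud1 ERSE-II, chr8:94386369-94386395, plus strand: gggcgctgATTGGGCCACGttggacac
The ERSE of Hspa5 lies 65 to 47 bases before the start, that of Pdia6 98 to 80, that of Dnajc3 105 to 87 and that of Canx 145 to 127. The Creld2 match reads on the strand opposite to the gene, 126 to 108 bases before its start. Herpud1 holds its ERSE-II 52 to 42 bases before the start.

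**Figure D1:**
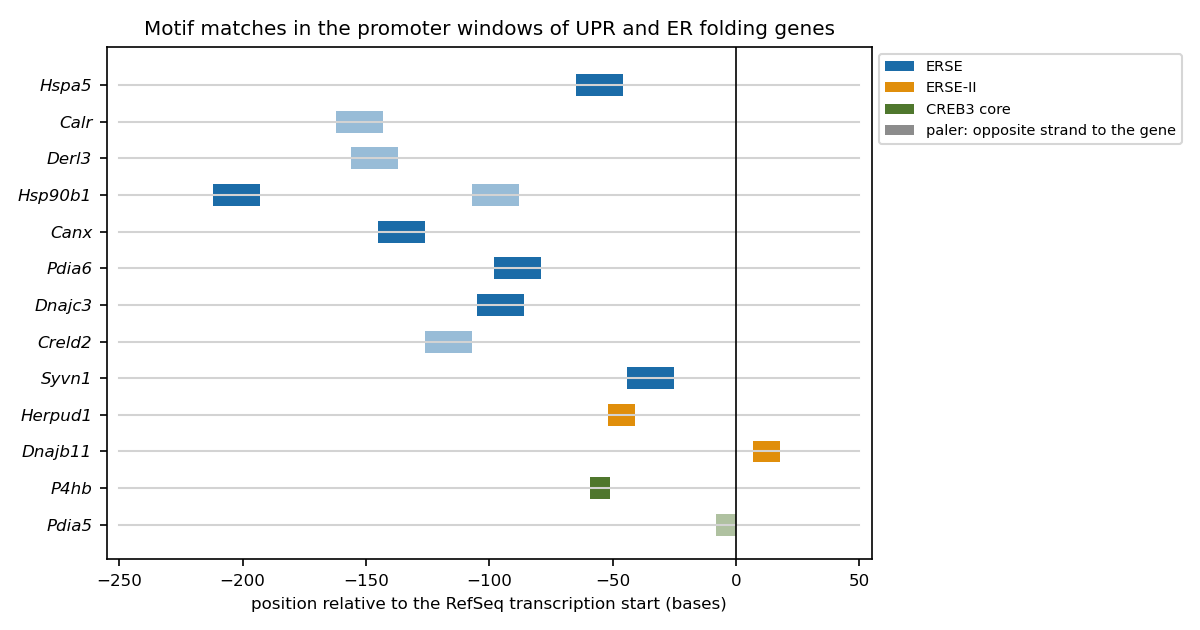
Positions of motif matches in the promoter windows of the 13 members with a match, in bases from the RefSeq transcription start (vertical line). Bars are matches, paler where they read on the strand opposite to the gene, and grey lines are the windows from 250 bases before to 50 bases after the start. All matches but that of Dnajb11 lie before the start.

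The 250 bases before the start are shown for Pdia6 and Pdia5, the members that passed the test in CD24+Tomato+ cells and hold a match, with its letters in capitals.
Pdia6, chr12:17266339-17266588, plus strand: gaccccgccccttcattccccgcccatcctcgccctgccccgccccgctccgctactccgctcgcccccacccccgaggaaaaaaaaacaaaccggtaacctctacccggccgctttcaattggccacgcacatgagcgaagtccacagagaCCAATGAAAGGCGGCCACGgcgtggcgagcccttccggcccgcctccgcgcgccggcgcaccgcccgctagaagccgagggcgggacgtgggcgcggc
Pdia5, chr16:35490874-35491123, minus strand: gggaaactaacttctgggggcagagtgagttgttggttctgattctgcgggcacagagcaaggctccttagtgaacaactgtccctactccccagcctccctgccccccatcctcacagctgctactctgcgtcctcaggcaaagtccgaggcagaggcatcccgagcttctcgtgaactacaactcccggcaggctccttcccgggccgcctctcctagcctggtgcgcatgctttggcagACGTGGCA
In the Pdia6 stretch 70.4% of bases were G or C, and 60.4% in that of Pdia5. The CREB3 letters of Pdia5 read on the strand opposite to the gene and are its last 8 bases before the start.

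In CD24+Tomato+ cells, 5 of the 40 genes were higher than in Tomatoneg cells and none was lower. The 5 were the membrane-bound factors Creb3l4 and Creb3l1, the co-chaperone and disulfide reductase Dnajc10, and the disulfide isomerases Pdia5 and Pdia6, with folds of 7.31, 4.99, 5.85, 3.86 and 2.32. They were 12.5% of the members, beside 8.02% of the 13874 genes tested that were higher and 4.89% that were lower (limma adjusted P under 0.05, 12.9% in either direction). The share of members called in either direction was thus close to that of all genes. At an unadjusted P under 0.05, 17 members passed, 42.5% beside 27.8% of all genes. The median log2 fold change was 0.59 over the members and 0.16 over all genes, and 30 of the 40 members were above 0, 75% beside 58.2%. For 18 members every CD24+Tomato+ library was above every Tomatoneg library, 45% beside 21.6% of all genes, and for Trib3 and Ero1a every one was below, 5% beside 14.4%.

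Libraries that share a replicate number also shared part of their deviation from the group mean, so a fit with the number as a block was set beside the first. With it, 17 members were higher in CD24+Tomato+ cells and none was lower. These were 42.5% of the members, beside 10.8% of all genes that were higher and 9.95% that were lower (20.8% in either direction). At an unadjusted P, 25 members passed with the block, 62.5% beside 36.3%. The 12 that passed only with the block were Ppp1r15a, Sec61b, Sdf2l1, Creld2, Edem2, Herpud1, Atf6, Manf, Ssr3, Pdia4, Dnajc3 and Hyou1. They come from every role in the list but the transcription factors, with folds of 1.43 for Hyou1 up to 3.49 for Ppp1r15a.

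In CD24negTomato+ cells, none of the 40 genes passed the test against Tomatoneg cells, where 0.999% of the 13420 genes tested were higher and 0.32% lower (limma adjusted P under 0.05, 1.32% in either direction). At an unadjusted P under 0.05, 8 members passed, 20% beside 17.1% of all genes. With the replicate block 6 members were higher and none lower, 15% beside 4.34% and 2.96% of all genes (7.3% in either direction). At an unadjusted P, 14 members passed with the block, 35% beside 28.6%. The 6 were Creb3l4, Dnajc10, Creb3l1, Dnajc3, Ssr3 and Pdia3, with folds of 4.78 for Creb3l4 down to 1.55 for Pdia3. Of the members, 33 had a log2 fold change above 0, 82.5% beside 54.9% of all genes, and their median was 0.29 against 0.08. With library totals made equal, the median of all genes moved from 0.08 to -0.12 and that of the members was 0.09. Of the 40 members 23 were then above 0, beside 43.5% of all genes. For 8 members the groups did not overlap, with CD24negTomato+ above Tomatoneg, 20% beside 14.7% of all genes, and for none was it below (10.6% of all genes). The controls are shared, so the results of the 2 populations are not independent, and a difference between the populations was not tested.

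**Figure D2:**
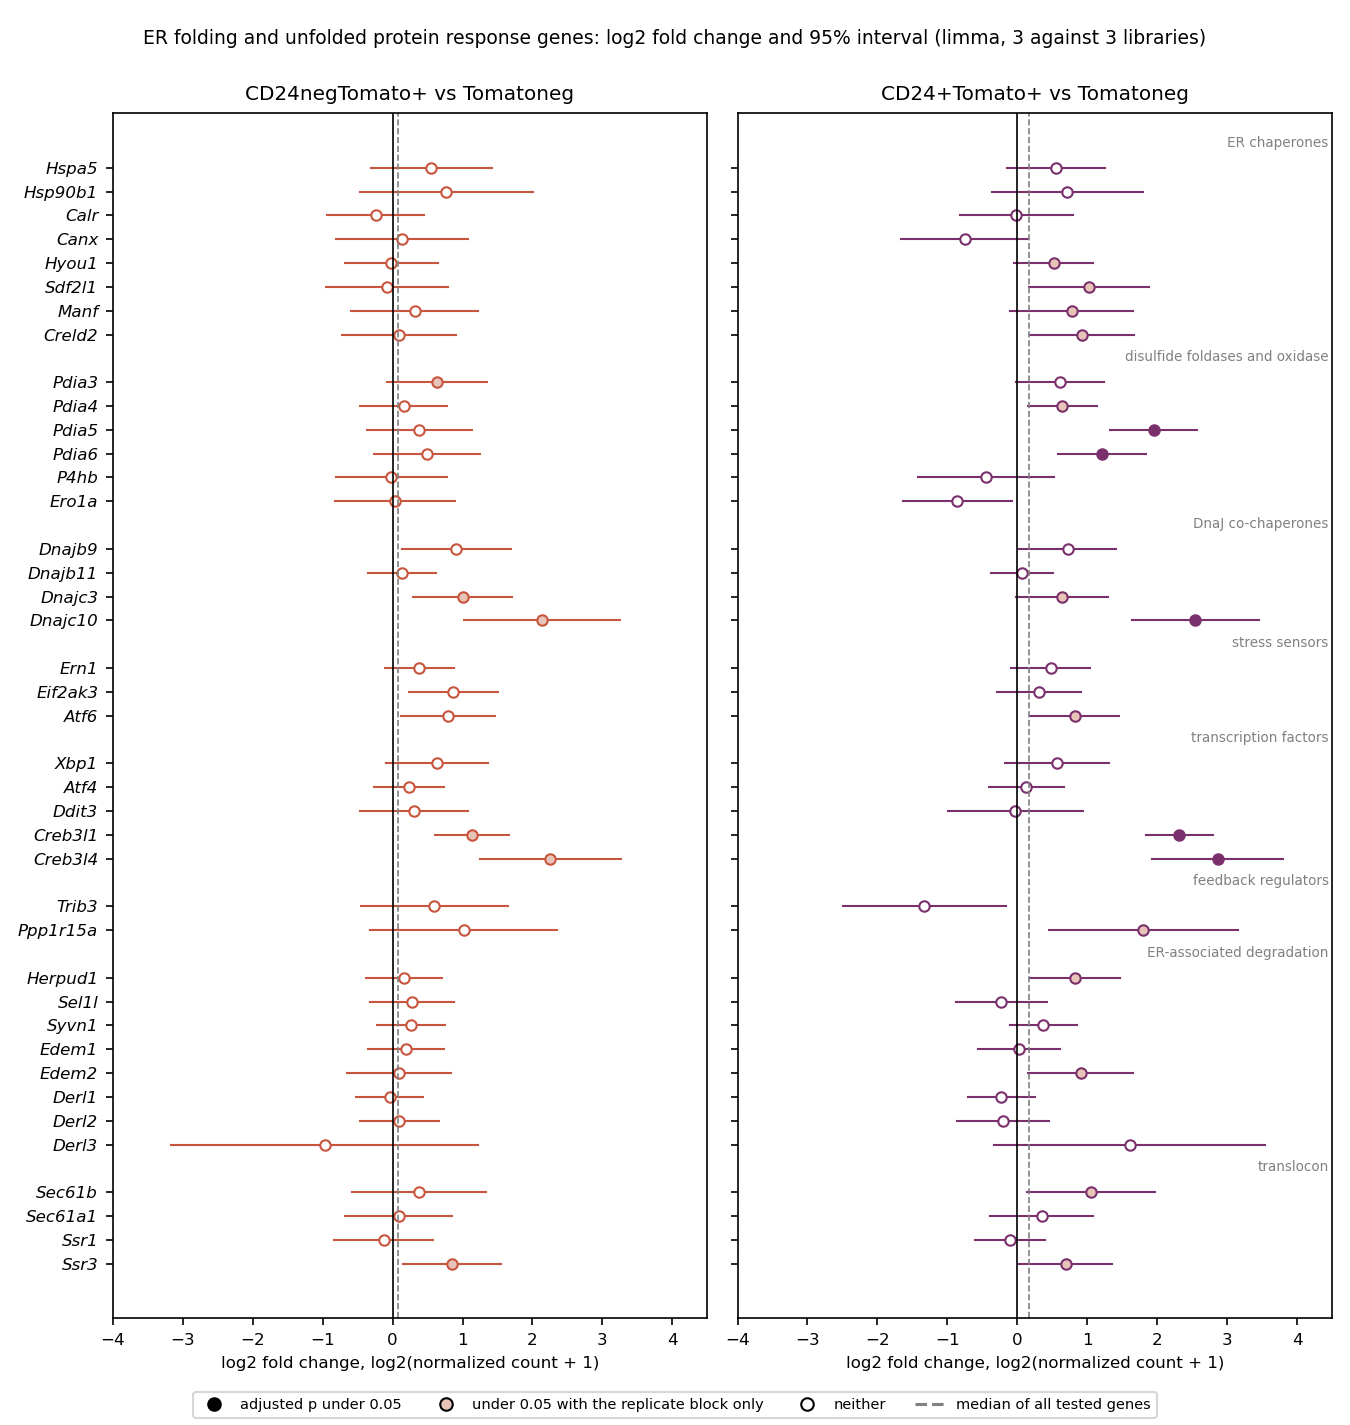
Log2 fold change of each of the 40 genes, grouped by role, in CD24negTomato+ (left) and CD24+Tomato+ (right) against Tomatoneg libraries, on the scale of log2(normalized count + 1). Points are limma estimates from 3 against 3 libraries, and lines their 95% intervals without the block. Points filled in full color passed an adjusted P of 0.05 without the block. Pale filled points passed only with the replicate block, and open points passed in neither fit. Only Creb3l1, Creb3l4, Dnajc10, Pdia5 and Pdia6 are filled in full color, all on the right, while pale filled points lie on both sides. The dashed lines at 0.08 and 0.16 mark the median of all tested genes.

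Among the transcription factors, Creb3l1 (OASIS) and Creb3l4 are ER membrane proteins that are released by proteolysis, as ATF6 is, and Creb3l1 is known to act in goblet cell maturation. Creb3l1 had 6552, 5598 and 5599 normalized counts in CD24+Tomato+ libraries, against 1402, 1148 and 1026 in Tomatoneg libraries. The lowest CD24+Tomato+ library was far above the highest Tomatoneg library. Its log2 fold change was 2.32 (SE 0.20, limma adjusted P = 0.00172), and it was the only one of the 5 that passed whichever of the 6 libraries was left out. In the other table Creb3l1 had 2451, 2894 and 2160.3 counts in CD24negTomato+ and 1302, 1122 and 978 in Tomatoneg libraries. The groups again did not overlap, with a log2 fold change of 1.14 (SE 0.23, limma adjusted P = 0.0614, 0.021 with the block, and 0.0298 without Tomatoneg replicate 1).

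Creb3l4 had 2079, 2625 and 2756 counts in the CD24+Tomato+ replicates and 180.5, 515 and 411 in the Tomatoneg replicates. It had the largest fold of all members in that table, and the groups were far apart. On the log2 scale it was higher by 2.87 (SE 0.40, limma adjusted P = 0.00771), and P was 0.0572 without CD24+Tomato+ replicate 2 and 0.0509 without replicate 3. In those fits 0.987% and 2.4% of all genes passed, beside 12.9% with all libraries. In CD24negTomato+ libraries it had 1379, 2000.5 and 1322 counts, against 168, 503 and 392. All 3 were above every Tomatoneg library, with a log2 fold change of 2.26 (SE 0.43, limma adjusted P = 0.0547, 0.0172 with the block, and 0.0229 without Tomatoneg replicate 1). In both tables Tomatoneg replicate 1 held the lowest Creb3l4 value. Tomatoneg replicate 1 also had the fewest genes above 0, and its part in these values beyond leaving it out was not tested.

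Xbp1, the factor downstream of IRE1 that maintains the ER of secretory cells, had 9177, 10874 and 10998 counts in CD24negTomato+ and 4277, 7382 and 9361 in Tomatoneg libraries. Tomatoneg replicate 3 lay above CD24negTomato+ replicate 1, so the groups overlapped, while each CD24negTomato+ library was above the Tomatoneg library of its number. This gave a log2 fold change of 0.63 (SE 0.31, limma adjusted P = 0.35, and 0.0977 with the block). In CD24+Tomato+ libraries it had 8899.5, 10177 and 12437 counts, against 4620.0, 7575 and 9850.5. Here the groups overlapped too, and the log2 fold change was 0.57 (SE 0.32, limma adjusted P = 0.292, and 0.0573 with the block), with a 95% interval of -0.17 to 1.31. Values per gene do not separate spliced from unspliced Xbp1 mRNA, so the activity of IRE1 cannot be read from them.

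Atf4, the factor translated when PERK phosphorylates eIF2α, had 7328, 8174 and 8962 counts in CD24negTomato+ and 6449.6, 6324 and 8038 in Tomatoneg libraries. In the CD24+Tomato+ replicates it had 6457, 8530.0 and 9058, against 6953, 6476 and 8441. The groups overlapped in both tables, and the log2 fold changes were 0.24 (95% interval -0.26 to 0.73) and 0.13 (-0.40 to 0.66), with limma adjusted P values of 0.599 and 0.752. Ddit3 (CHOP), a factor that promotes cell death under lasting ER stress, had 286, 359.6 and 347 counts in CD24negTomato+ and 208, 355 and 255 in Tomatoneg libraries. Its CD24+Tomato+ values were 170.5, 325 and 354, against 221, 357 and 263. These overlapped as well, with log2 fold changes of 0.31 (95% interval -0.47 to 1.08) and -0.03 (-0.99 to 0.94), and limma adjusted P values of 0.671 and 0.978.

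**Figure D3:**
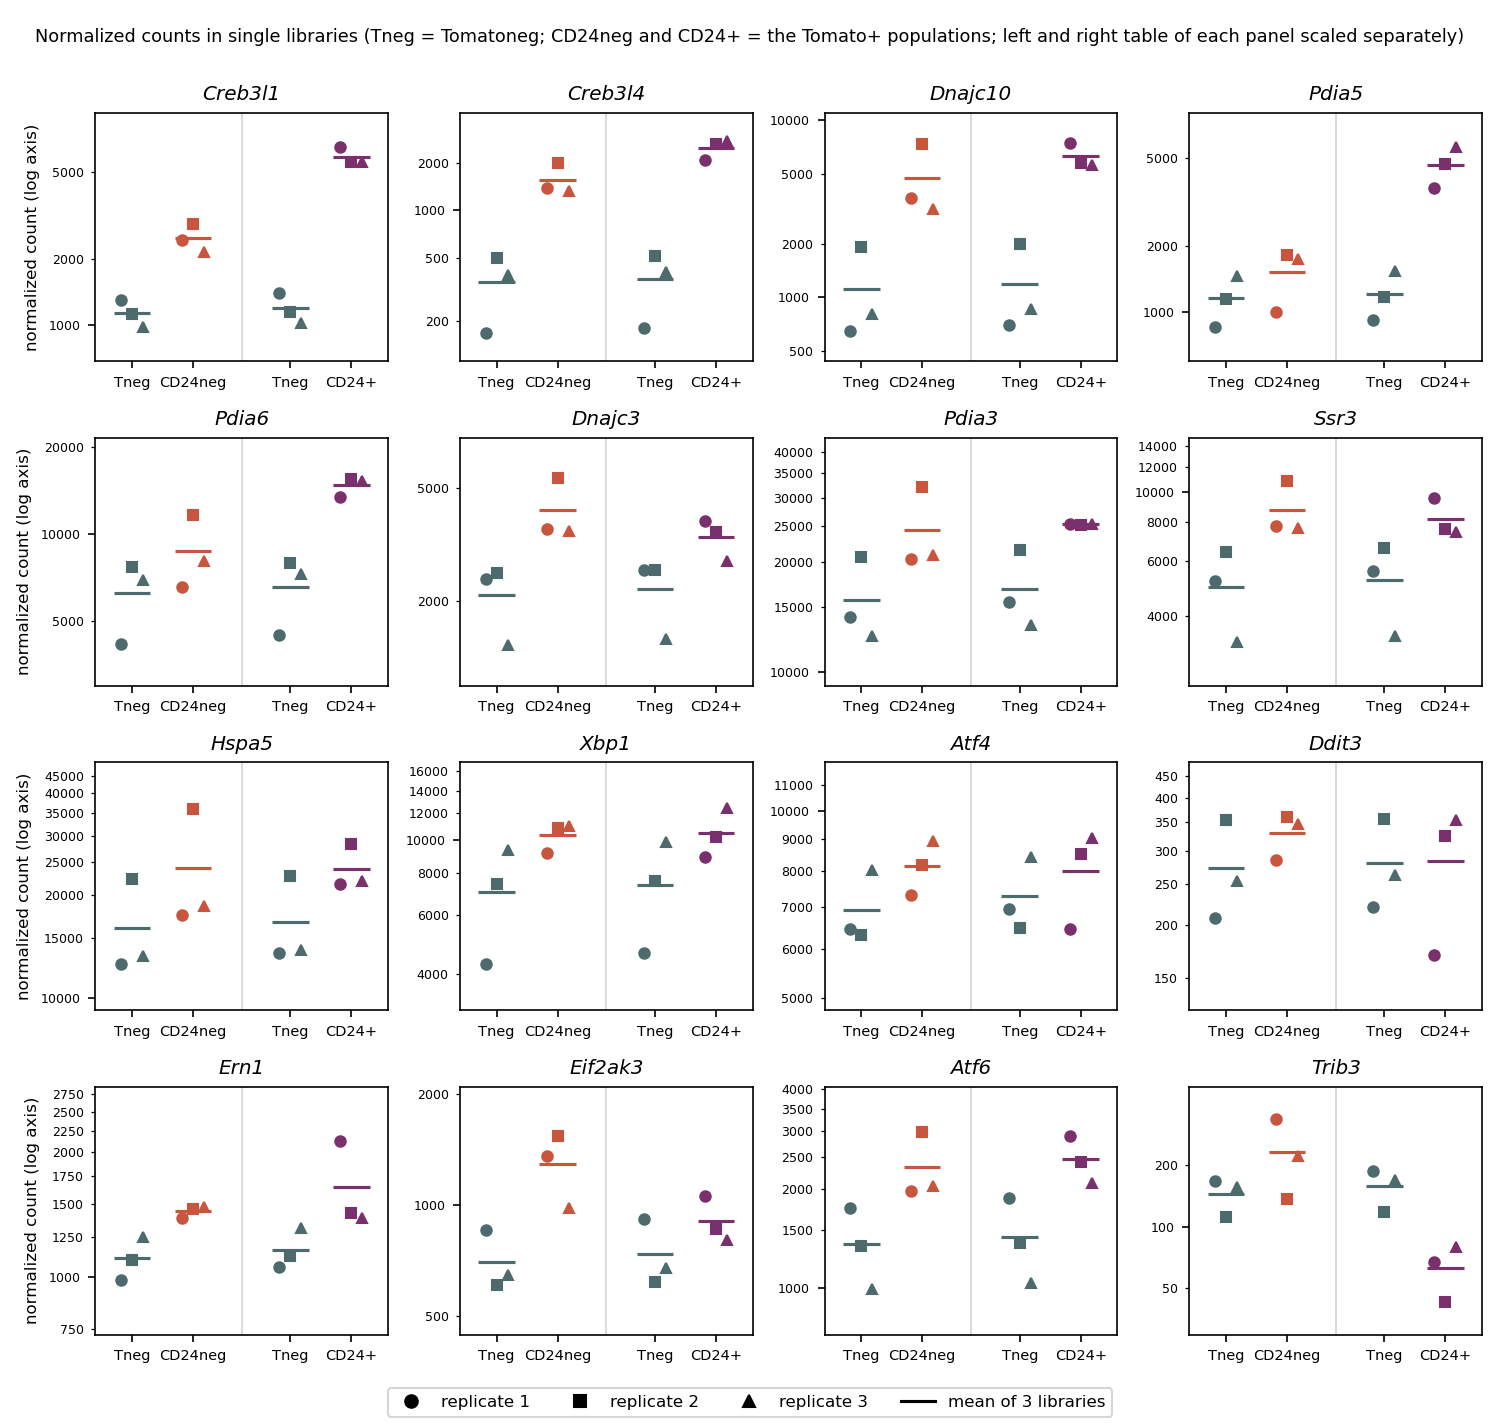
Normalized counts on a log axis in single libraries for 16 of the genes, with CD24negTomato+ against Tomatoneg in the left and CD24+Tomato+ against Tomatoneg in the right part of each panel, since the tables were scaled separately. Symbols are replicates 1, 2 and 3 and lines the means of 3 libraries. Creb3l1, Creb3l4 and Dnajc10 do not overlap between groups in either part, Pdia5 and Pdia6 only in the right part, and Atf4 and Ddit3 overlap in both.

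Of the 3 sensors, Atf6 passed the test with the block in CD24+Tomato+ cells, and Ern1 (IRE1α) and Eif2ak3 (PERK) did not pass in either comparison with or without the block. Atf6, which moves to the Golgi and is cleaved there, had 2896, 2409 and 2077 counts in CD24+Tomato+ and 1868, 1366 and 1034 in Tomatoneg libraries. The groups did not overlap (log2 fold change 0.82, SE 0.27, limma adjusted P = 0.0946, 0.0148 with the block, and 0.0281 without Tomatoneg replicate 1). Its CD24negTomato+ values were 1964, 2969 and 2042, against 1739.9, 1340.0 and 989, also without overlap (log2 fold change 0.79, SE 0.29, limma adjusted P = 0.225, 0.0921 with the block, and 0.024 with the block and without pair 1). That last fit was the only 1 of 17, alternatives included, in which Atf6 passed there. Eif2ak3, the kinase that slows translation, had 1359, 1536 and 979 counts in CD24negTomato+ and 853, 605 and 646 in Tomatoneg libraries. All 3 CD24negTomato+ values were the higher ones, with a log2 fold change of 0.87 (SE 0.27, limma adjusted P = 0.166, 0.0689 with the block, and 0.0273 with array weights). Eif2ak3 passed there in 1 of 17 fits, that with array weights, where 11.3% of all genes passed. In CD24+Tomato+ libraries Eif2ak3 had 1056, 859 and 801 counts, against 913, 616 and 674, and the groups overlapped (log2 fold change 0.31, SE 0.26, limma adjusted P = 0.479). Ern1, the kinase and endonuclease that splices Xbp1 mRNA, had 1386, 1460.0 and 1477 counts in CD24negTomato+ and 983, 1099 and 1249 in Tomatoneg libraries. Its values in the other table were 2123, 1428 and 1390.0 in CD24+Tomato+ and 1059, 1125 and 1311 in Tomatoneg libraries. Neither pair of groups overlapped, and the log2 fold changes of 0.38 and 0.48 had 95% intervals of -0.11 to 0.88 and -0.09 to 1.04.

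The feedback regulators had larger spreads. Ppp1r15a (GADD34), which directs a phosphatase to eIF2α and so restores translation, had 901, 1625 and 1282 counts in CD24+Tomato+ and 144, 416 and 734 in Tomatoneg libraries. The groups did not overlap, although the Tomatoneg libraries differed widely among themselves. Its log2 fold change was 1.80 (SE 0.58, limma adjusted P = 0.0857, 0.0156 with the block, and 0.0399 without Tomatoneg replicate 3). Its log2 fold change in CD24negTomato+ cells was 1.02 (SE 0.58, limma adjusted P = 0.403), from 544, 805 and 693 and 132, 401 and 690.4 counts, and the groups overlapped. Ppp1r15a shares exon bases with Tulp2 on the other strand, and whether counting used strand is not given in the sources used here. Trib3, a pseudokinase induced by ATF4 and CHOP, had 337, 136 and 223 counts in CD24negTomato+ and 168, 112 and 156 in Tomatoneg libraries (log2 fold change 0.60, SE 0.45, limma adjusted P = 0.524). Its CD24+Tomato+ values were 66.9, 42.6 and 79.7, against 187, 118 and 169. Here every CD24+Tomato+ library was below every Tomatoneg library (log2 fold change -1.33, SE 0.50, limma adjusted P = 0.134, and 0.113 with the block). Trib3 passed there in 2 of 17 fits, after quantile normalization (limma adjusted P = 0.0368) and with array weights (0.0178).

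Of the 8 chaperones of the ER lumen and membrane, none passed without the block and 4 were higher with it in CD24+Tomato+ cells. Hspa5 (BiP), the chief chaperone and the protein that holds the sensors inactive, had 17492, 36003 and 18658 counts in CD24negTomato+ and 12604, 22336 and 13257 in Tomatoneg libraries. CD24negTomato+ replicate 2 and Tomatoneg replicate 2 were the high libraries of their groups, and the groups overlapped. In the other table it had 21564, 28416 and 22018 counts in CD24+Tomato+ libraries, against 13530.2, 22776 and 13862. Each Tomato+ library was above the Tomatoneg library of its number, but Tomatoneg replicate 2 was above the lowest Tomato+ libraries. The log2 fold change was 0.55 in CD24negTomato+ (SE 0.37, limma adjusted P = 0.48, 0.0555 with the block, and 0.0422 with the block and without pair 1). It was 0.55 in CD24+Tomato+ cells as well (SE 0.30, limma adjusted P = 0.281, and 0.0536 with the block). Hspa5 passed in 1 of 17 fits in CD24negTomato+ cells and in none in CD24+Tomato+ cells. Hsp90b1 (GRP94), its partner in folding, ranged from 10291 to 26037 and from 12001 to 17152 counts in the Tomato+ populations, with log2 fold changes of 0.77 and 0.71 (limma adjusted P = 0.491 and 0.368). Its exons overlap Gm15344 on the same strand.

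Sdf2l1, Creld2, Manf and Hyou1 are cofactors or relatives of the BiP cycle that are known targets of ER stress. Sdf2l1 had 2609, 3404 and 3717 counts in CD24+Tomato+ and 899, 1830.1 and 2364 in Tomatoneg libraries (log2 fold change 1.03, SE 0.37, limma adjusted P = 0.117, and 0.0153 with the block). For Creld2 they were 2613, 3766 and 3775, against 1147, 1939.9 and 2431 (log2 fold change 0.93, SE 0.32, limma adjusted P = 0.105, and 0.0111 with the block). Neither of these overlapped between groups, and in each the Tomatoneg replicate 1 library was the lowest. Manf, a secreted survival factor of the ER, had 6370.3, 10130.4 and 11049 counts against 3090.1, 6358 and 7166, and Tomatoneg replicate 3 lay above CD24+Tomato+ replicate 1 (log2 fold change 0.78, limma adjusted P = 0.228, and 0.0144 with the block). Hyou1 (GRP170), an exchange factor for BiP, had 9591, 11273 and 12095 counts against 5899, 8490.1 and 8848 (log2 fold change 0.52, limma adjusted P = 0.212, and 0.0459 with the block). In CD24negTomato+ cells the log2 fold changes of Sdf2l1, Creld2, Manf and Hyou1 were -0.08, 0.09, 0.31 and -0.02, and their groups overlapped.

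The lectin chaperones of the glycoprotein cycle did not pass. Calr had log2 fold changes of -0.24 and -0.01 in CD24negTomato+ and CD24+Tomato+ cells (limma adjusted P = 0.713 and 0.985). Canx ranged from 6833 to 7934 counts in CD24+Tomato+ and from 6989 to 20792 in Tomatoneg libraries. Each CD24+Tomato+ library was below the Tomatoneg library of its number, with a log2 fold change of -0.75 (SE 0.39, limma adjusted P = 0.257, 0.0804 with the block, and 0.0492 without Tomatoneg replicate 3). Canx passed there in 2 of 17 fits. In CD24negTomato+ cells the log2 fold change of Canx was 0.13 (SE 0.40).

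Of the disulfide foldases, Pdia5 and Pdia6 were higher in CD24+Tomato+ cells. Pdia5, a disulfide isomerase known to act on ATF6, had 3655, 4690.4 and 5619 counts in CD24+Tomato+ and 927, 1174 and 1537 in Tomatoneg libraries. The groups were well separated, with Tomatoneg replicate 3 and CD24+Tomato+ replicate 3 the highest of their groups. Its log2 fold change was 1.95 (SE 0.27, limma adjusted P = 0.00726), and P was 0.0563 without CD24+Tomato+ replicate 2. In CD24negTomato+ libraries it had 1004, 1821 and 1746 counts, against 860.0, 1147 and 1464, with overlap (log2 fold change 0.38, SE 0.32, limma adjusted P = 0.576). Pdia6, an isomerase that also acts on IRE1, had 13471, 15564 and 15259 counts in CD24+Tomato+ and 4463, 7904 and 7275 in Tomatoneg libraries. Again the groups did not overlap (log2 fold change 1.21, SE 0.27, limma adjusted P = 0.0288). Without CD24+Tomato+ replicate 1, 2 or 3 the limma adjusted P of Pdia6 was 0.0805, 0.144 and 0.111, with log2 fold changes of 1.28, 1.17 and 1.19. In these fits 4.76%, 0.987% and 2.4% of all genes passed, beside 12.9% with all libraries. The adjusted P of Pdia6 was 0.0622 when the variance prior of limma had no trend. In CD24negTomato+ cells its values were 6556, 11606 and 8058, against 4131, 7701 and 6913 (log2 fold change 0.49, SE 0.33, limma adjusted P = 0.47). Part of the Pdia6 exons overlaps Atp6v1c2 on the other strand.

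Pdia3 (ERp57), the isomerase that works with the lectin chaperones, had 20309, 32122 and 20929 counts in CD24negTomato+ and 14125, 20616 and 12492 in Tomatoneg libraries. It was higher in each pair (log2 fold change 0.64, SE 0.31, limma adjusted P = 0.336, and 0.0402 with the block). The CD24+Tomato+ libraries were almost alike at 25345, 25255 and 25330.5 counts, all above the Tomatoneg values of 15555, 21564 and 13399 (log2 fold change 0.62, SE 0.27, limma adjusted P = 0.186, and 0.0593 with the block). Pdia4 (ERp72) had 6108, 6488 and 6784 counts in CD24+Tomato+ and 3349, 4749 and 4434 in Tomatoneg libraries without overlap (log2 fold change 0.64, limma adjusted P = 0.0904, and 0.0259 with the block), and a log2 fold change of 0.16 in CD24negTomato+ cells. P4hb (PDI), the most abundant isomerase, had log2 fold changes of -0.02 and -0.45 (limma adjusted P = 0.984 and 0.532). Ero1a, the oxidase that recharges PDI, ranged from 792 to 932 counts in CD24+Tomato+ and from 967 to 2304 in Tomatoneg libraries. Every CD24+Tomato+ library was the lower one (log2 fold change -0.86, SE 0.33, limma adjusted P = 0.142, 0.07 with the block, and 0.0339 without Tomatoneg replicate 3), and in CD24negTomato+ cells the log2 fold change was 0.03. Ero1a passed in 2 of 17 fits in CD24+Tomato+ cells.

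Among DnaJ co-chaperones of BiP, Dnajc10 (ERdj5), a reductase that opens wrong disulfides, had 7474, 5764 and 5560.0 counts in CD24+Tomato+ and 702, 1990.0 and 855 in Tomatoneg libraries. The groups were wide apart, with Tomatoneg replicate 2 the highest of its group. It was higher by a log2 fold change of 2.55 (SE 0.39, limma adjusted P = 0.00979), and P was 0.0611 without CD24+Tomato+ replicate 2 and 0.0518 without replicate 3. In CD24negTomato+ libraries Dnajc10 had 3633, 7332 and 3147 counts, against 643, 1918 and 804. They did not overlap either, with a log2 fold change of 2.13 (SE 0.48, limma adjusted P = 0.08, and 0.00415 with the block).

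Dnajc3 (p58IPK), which also restrains PERK, had 3575, 5391 and 3541 counts in CD24negTomato+ and 2398, 2512 and 1409 in Tomatoneg libraries (log2 fold change 1.0, SE 0.30, limma adjusted P = 0.154, and 0.0357 with the block). Its CD24+Tomato+ values were 3816, 3499 and 2762, against 2581, 2568 and 1477 (log2 fold change 0.64, SE 0.28, limma adjusted P = 0.189, and 0.0331 with the block). Neither pair of groups overlapped. Dnajb9 (ERdj4), which brings BiP to IRE1, had log2 fold changes of 0.91 and 0.72 and was higher in all 3 pairs of both tables (limma adjusted P = 0.227 and 0.168, and 0.0628 and 0.0722 with the block). Without Tomatoneg replicate 2 its limma adjusted P in CD24+Tomato+ cells was 0.0467, the 1 call of Dnajb9 there in 17 fits. Dnajb11 (ERdj3) differed least, by 0.13 (95% interval -0.35 to 0.61) and 0.07 (-0.38 to 0.51) on the log2 scale.

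In ERAD, which draws misfolded proteins back to the cytosol, 2 of 8 genes passed in CD24+Tomato+ cells, and only with the block. Herpud1, a scaffold of the ubiquitin ligase, had 3950.3, 6277 and 7286 counts in CD24+Tomato+ and 2706, 3330.1 and 3623 in Tomatoneg libraries (log2 fold change 0.82, SE 0.28, limma adjusted P = 0.0973, and 0.0129 with the block). Edem2, a mannosidase that marks glycoproteins for disposal, had 3832, 5019.7 and 5752 counts, against 1698, 2628 and 3741 (log2 fold change 0.91, SE 0.32, limma adjusted P = 0.112, and 0.0106 with the block). Both were without overlap. In CD24negTomato+ cells no ERAD member passed with or without the block, and Herpud1 and Edem2 had log2 fold changes of 0.17 and 0.10. The ligase Syvn1 (HRD1) and its partner Sel1l had 0.26 and 0.28 in CD24negTomato+ and 0.37 and -0.23 in CD24+Tomato+ cells. Edem1, Derl1 and Derl2 lay between -0.23 and 0.20 on this scale in both comparisons. Derl3, the derlin known from cells with a large secretory load, was the member with the least mRNA in most groups, with 8.95, 10.6 and 12.1 counts in CD24negTomato+, 78.4, 64.7 and 142 in CD24+Tomato+ and 79.7, 11.1 and 25.9 in Tomatoneg libraries of the second table. The log2 fold changes of -0.97 (SE 0.94) and 1.61 (SE 0.83) did not pass (limma adjusted P = 0.63 and 0.257). Tomatoneg replicate 1 held the highest Derl3 value of its group, and without it the CD24+Tomato+ difference was 2.33 (limma adjusted P = 0.0447). Derl3 passed there in 3 of 17 fits.

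At the translocon, Ssr3, a subunit of the translocon-associated TRAP complex, had 7741, 10825 and 7630.5 counts in CD24negTomato+ and 5162, 6420.3 and 3286 in Tomatoneg libraries (log2 fold change 0.85, SE 0.30, limma adjusted P = 0.212, and 0.0386 with the block). In CD24+Tomato+ libraries it had 9554, 7577 and 7401, against 5562, 6571 and 3449 (log2 fold change 0.70, SE 0.28, limma adjusted P = 0.161, and 0.0483 with the block). Both were without overlap. Sec61b, a small subunit of the channel, had 3885, 4989 and 5594 counts in CD24+Tomato+ and 1246, 2773 and 3542 in Tomatoneg libraries, also without overlap (log2 fold change 1.05, SE 0.39, limma adjusted P = 0.13, and 0.0169 with the block). Its log2 fold change in CD24negTomato+ cells was 0.38. The pore subunit Sec61a1 (0.09 and 0.35) and the TRAP subunit Ssr1 (-0.13 and -0.11) passed in neither comparison.

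Levels were compared between genes only per kilobase of transcript. The length was that of the longest protein-coding transcript with a consensus coding sequence tag, or of the longest without it where none had the tag. P4hb and Calr led in every group, with 29849.8 ± 2067 and 18102 ± 3860 normalized counts per kilobase (SD, n = 3) in CD24negTomato+ libraries and 23390.0 ± 3944 and 22455 ± 4658 in CD24+Tomato+ libraries. The last pair did not differ beyond its spread. In Tomatoneg libraries of the second table they had 32615 ± 9891 and 22645 ± 4420 counts per kilobase. Pdia3 was next in each group, with 8828 ± 2400 in CD24negTomato+ and 9137 ± 17.4 in CD24+Tomato+ libraries. Derl3 and Trib3 held the last places, with 7.98 ± 1.20 and 115 ± 49.8 in CD24negTomato+ and 72.0 ± 31.3 and 31.1 ± 9.30 in CD24+Tomato+ libraries. Between replicates, the highest library of a member was a median of 1.51 times the lowest in CD24negTomato+, 1.40 times in CD24+Tomato+ and 1.76 times in Tomatoneg libraries, beside 1.58, 1.52 and 2.25 over all tested genes. CD24negTomato+ replicate 2 was the highest library of its group for 26 members, and replicate 1 the lowest for 26.

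The other genes of ER entry, folding, ERAD, signalling, ATF4 response and transport to the Golgi came to 128, of which 126 were tested. In CD24negTomato+ cells 6 of these were higher and none lower, 4.76% beside 0.999% of all genes. With the block 18 were higher and 2 lower there, 14.3% and 1.59% beside 4.34% and 2.96% of all genes. In CD24+Tomato+ cells 15 were higher and 5 lower, 11.9% and 3.97% beside 8.02% and 4.89%. With the block 31 were higher and 7 lower there, 24.6% and 5.56% beside 10.8% and 9.95% of all genes. These lists were written with results of these data known, so the counts are descriptions.

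Among the 24 other folding genes tested, Agr2 and Txndc5 passed in both comparisons. Agr2, a disulfide isomerase needed for mucin production, had 61866, 131255 and 69261 counts in CD24negTomato+ and 6107, 21034 and 13213 in Tomatoneg libraries (log2 fold change 2.79, SE 0.50, limma adjusted P = 0.0494). Its CD24+Tomato+ values were 83660.5, 119802 and 115106, against 6599, 21589 and 13906 (log2 fold change 3.06, SE 0.47, limma adjusted P = 0.00974). The groups were far apart in both tables. Txndc5 had log2 fold changes of 1.62 and 2.04. In CD24+Tomato+ cells the isomerase relatives Agr3 (5.66) and Pdia2 (2.53) and the oxidase Qsox1 (2.63) were also higher. Agr3 (6.48, limma adjusted P = 0.0593) and Qsox1 (1.83, limma adjusted P = 0.0512) passed in CD24negTomato+ cells only with the block (0.0224 and 0.025). Agr3 was at 0 in Tomatoneg replicate 1, while Pdia2, known chiefly from the pancreas, had 357, 522 and 805 counts in CD24+Tomato+ libraries against 176, 43.1 and 99.5, and a log2 fold change of -1.01 in CD24negTomato+ cells that did not pass. Among 25 genes of ER entry and glycosylation, the signal peptidase subunits Sec11c (1.40) and Spcs3 (1.29) were higher in CD24+Tomato+ cells and none passed in CD24negTomato+ cells (7 and 2 were higher with the block). The 20 other ERAD genes held no call in either comparison without the block (6 and 1 at an unadjusted P, and 3 and 2 with the block, in limma).

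Among 15 other sensors and factors, Ern2 (IRE1β), the isoform of IRE1 found in mucous epithelia, had 2494, 2696 and 2043 counts in CD24negTomato+ and 601, 542 and 557 in Tomatoneg libraries (log2 fold change 2.08, SE 0.22, limma adjusted P = 0.00938). In CD24+Tomato+ libraries it had 3553, 2967 and 3041, against 648, 555 and 584 (log2 fold change 2.42, SE 0.20, limma adjusted P = 0.00152). Every Tomato+ library held more than 3 times the Ern2 counts of any Tomatoneg library, where Ern1 differed by 0.38 and 0.48. Spdef, a factor of goblet and Paneth cell maturation, was higher in both comparisons, by 1.79 and 2.58. Bhlha15 (MIST1), a factor of secretory architecture, was higher in CD24+Tomato+ cells (log2 fold change 2.51, limma adjusted P = 0.0138) and had -0.51 in CD24negTomato+ cells (limma adjusted P = 0.673). Creb3l3 (CREBH), known from liver and enterocytes, fell in CD24+Tomato+ cells, with 1167, 438 and 697 counts against 6805, 3266 and 6399.5 (log2 fold change -2.88, limma adjusted P = 0.00923), and had a log2 fold change of 0.04 in CD24negTomato+ cells. Creb3l2, a relative of Creb3l1, had log2 fold changes of 1.01 (limma adjusted P = 0.281, and 0.0469 with the block) and -0.03. Wfs1, an ER membrane protein that restrains ATF6, had -0.25 and -0.86 and did not pass with or without it.

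Of 22 tested genes of the ATF4 response, Nupr1, a stress-induced regulator of transcription, was higher in both comparisons (log2 fold change 2.07 and 2.83, limma adjusted P = 0.0195 and 0.00786). The amino acid transporter chain Slc3a2 (-1.15) and the cysteine enzyme Cth (-0.91) were lower in CD24+Tomato+ cells. With the block 6 of the 22 were higher there, Vldlr, Slc7a5, Asns, Ddit4 and Gars in addition to Nupr1, and 2 lower, and in CD24negTomato+ cells 1 was higher and 1, Phgdh, lower. Atf3 (0.37 and -0.68) and Chac1 (0.81 and 1.10), which respond to ATF4 and CHOP, did not pass in either. Among 20 genes of transport to the Golgi, the KDEL receptor Kdelr3, which returns chaperones to the ER, was higher by 1.91 and 2.02. Tmed3 (1.63) and Tmed9 (1.52) were higher and the coat GTPase Sar1b (-0.86) lower in CD24+Tomato+ cells, and with the block 4 of the 20 were higher in CD24negTomato+ cells and 5 higher and 3 lower in CD24+Tomato+ cells. The 12 cytosolic heat shock genes had medians of -0.30 and -0.15, and the small heat shock gene Hspb1 was the 1 that passed, with 217, 176 and 57 counts in CD24+Tomato+ and 0, 0 and 3.36 in Tomatoneg libraries. The Tomatoneg values are at or near the floor of 3 reads. With the block the chaperones Hspe1 and Hsp90ab1 were lower in CD24negTomato+ cells (log2 fold change -0.88 and -0.78, limma adjusted P = 0.0249 and 0.0335). Of 12 immediate early genes, which respond within minutes to handling and other stimuli, Dusp1, Btg2, Ier2 and Egr1 were higher in CD24+Tomato+ cells and none passed in CD24negTomato+ cells, with medians of 0.82 and 0.39. With the block 7 of them were higher in CD24+Tomato+ cells and Dusp1 in CD24negTomato+ cells, and their part in the results for ER genes was not tested.

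**Figure D4:**
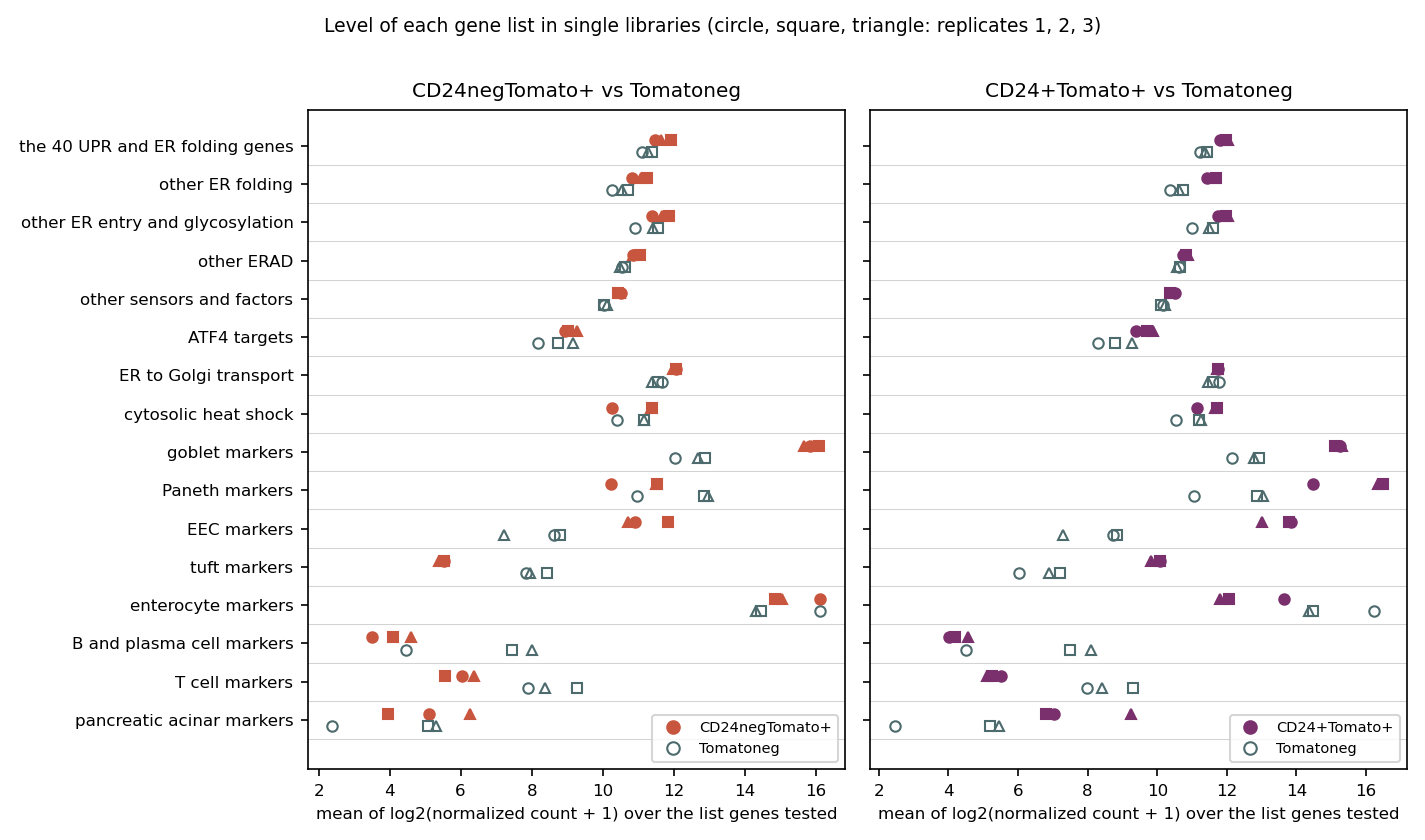
Mean log2(normalized count + 1) over the tested genes of each list in single libraries, for CD24negTomato+ (left) and CD24+Tomato+ (right) with their Tomatoneg libraries as open symbols. The 40 genes lie between 11.11 and 12.03 in all libraries, with the Tomato+ libraries above the Tomatoneg ones, while goblet markers lie at 15.12 to 16.10 in Tomato+ and 12.03 to 12.93 in Tomatoneg libraries.

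Levels of cell type markers also differed between the groups. All 9 goblet markers had log2 fold changes above 0 in both comparisons, 8 passing in CD24negTomato+ and 9 in CD24+Tomato+ cells, with summed levels of 2075990 to 2722560 and of 921095 to 1207360 normalized counts against 128788 to 203663 in Tomatoneg libraries. None of 9 Paneth markers passed in CD24negTomato+ cells without the block (4 were lower with it), where they summed to 19815 to 50789 counts against 36272 to 159906. In CD24+Tomato+ cells 8 of 9 Paneth markers were higher, with sums of 499189 to 2248630 against 39233 to 168581. EEC markers were higher in 6 of 12 (with the block 8, while Sst and Gip were lower) and 12 of 12, with sums of 84904 to 155792 and of 306920 to 457246 against 5458 to 12299. Of 9 enterocyte markers, 6 were lower in CD24+Tomato+ and none passed in CD24negTomato+ cells, with sums of 37295 to 125839 and of 296864 to 696243 against 225735 to 796473. T cell markers were lower in 2 of 7 and 6 of 7, with sums of 388 to 1119 in Tomato+ and 2479 to 9764 in Tomatoneg libraries. Markers of B and plasma cells, the latter secretory cells too, were lower in 1 and 3 of the 8 tested, with sums of 185 to 745 against 1689 to 9686 and with Tnfrsf17 at 0 in every CD24+Tomato+ library. Stem cell markers were lower in 1 of 6 in CD24negTomato+ cells and none passed in CD24+Tomato+ cells. With the block 3 were lower in CD24negTomato+ cells, and 2, Slc12a2 and Smoc2, were higher in CD24+Tomato+ cells. Tuft markers were lower in 3 of 6 tested in CD24negTomato+ (398 to 439 against 1549 to 2350) and higher in 7 of 8 in CD24+Tomato+ cells (16350 to 19478 against 1757 to 2528), with Il25 at 0 in every CD24negTomato+ library. Pancreatic acinar markers summed to 1646 to 2396 and 5826 to 17712 counts against 696 to 1400, and 1 of 9 passed, Clps in CD24+Tomato+ cells (3 with the block). With the block all 9 enterocyte markers were lower in CD24+Tomato+ cells, and Fabp2 was higher in CD24negTomato+ cells. Tuft markers were then lower in all 6 tested in CD24negTomato+ cells, and T cell markers in 4 of 7 there. Of the 8 B and plasma cell markers tested, 4 were then lower in each comparison. The part of these cell types in the results for ER genes was not tested. In bulk libraries a change in the share of a cell type and a change in the RNA of its cells cannot be told apart.

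The fold changes were then set beside the promoter matches. Over the 9 members with an ERSE the median log2 fold change was 0.26 in CD24negTomato+ and 0.64 in CD24+Tomato+ cells, and over the 25 with a window and no ERSE it was 0.31 and 0.57. Values of the 9 ran from -0.97 to 1.0 in CD24negTomato+ and from -0.75 to 1.61 in CD24+Tomato+ cells. In CD24+Tomato+ cells 1 of the 9 passed, and 3 of the other 25, beside 12.9% of all genes. With the block 3 of the 9 and 10 of the 25 passed there, beside 20.8% of all genes. In CD24negTomato+ cells 1 of the 9 and 4 of the 25 passed, only with the block, beside 7.3% of all genes. No test of the difference was made. Of the 5 genes that passed, Pdia6 holds the ERSE and Pdia5 the CREB3 letters shown above, Dnajc10 and Creb3l4 hold none of the 5 elements in their windows, and Creb3l1 had no window.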

How the data were processed

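Bulk RNA-Seq of 9 libraries was read from 2 tables of 6 libraries. Per the study's methods and the submitters' processing notes, the authors demultiplexed reads with bcl2fastq 2.19, quantified transcripts by kallisto 0.44.0 against GRCm38 and used DESeq2 and sleuth for their own comparisons. The deposited signal values are counts per gene that the authors normalized separately in each table. The Tomatoneg values therefore differ by median ratios of 1.078, 1.024 and 1.050 between the tables. The ratio is not the same for every gene. In Tomatoneg replicate 1, Derl3 had 58.0 and 79.7 counts in the first and second table, and Hspa5 12604 and 13530. The values are thus not counts divided by a single factor per library. Low values were whole multiples of 1 read, within 0.01, for only 23.0% to 44.5% of them, so no count model was run.

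Values were transformed to log2(normalized count + 1), a gene was kept where its 6 libraries in a table averaged 10 or more, and Tomato+ was compared with Tomatoneg by limma 3.58.1 in R 4.3.3 (eBayes with trend, two-sided, Benjamini-Hochberg adjusted P under 0.05 over all genes). This scale understates the change of low genes. Fold is 2 to the power of that difference. Groups and replicate numbers came from the labels. Deviations from the group means correlated between Tomato+ and Tomatoneg libraries of the same number by 0.30, 0.29 and 0.34 in the CD24negTomato+ table and by 0.28, 0.18 and 0.38 in the other, so the numbers were treated as pairs in a second fit with the number as a block.

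The 40 members, the other gene lists and the marker lists were chosen with earlier results of these data known. Values in single libraries are given for members that passed with or without the block, for the sensors and for Xbp1, Atf4, Ddit3 and Hspa5. Of each other list, up to 4 genes with the largest change among those that passed are named, and always Ern2, Agr2, Creb3l2, Bhlha15, Wfs1, Atf3 and Chac1. Trib3 and a few members with single values outside this rule were chosen after their values were seen. Transcript lengths and exon overlaps are from GENCODE M21, and promoter windows from RefSeq on GRCm38.p6. Exons of Hsp90b1, Manf and Pdia4 overlap another gene on the same strand and those of Pdia3, Pdia6, Dnajb9, Eif2ak3, Ppp1r15a, Syvn1, Derl2 and Sec61a1 one on the other strand, and whether counting used strand is not given in the sources used here. Alternatives were other pseudocounts, filters, scalings and variance models, array weights, and each library left out. Python 3.11.15, pandas 2.3.3, numpy 2.4.6, scipy 1.17.1 and matplotlib 3.10.9 were used for the rest.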

Additional observations from a re-analysis of the deposited data

Results flagged for a closer look

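Trib3 had opposite directions in the 2 populations. Its log2 fold change was 0.60 in CD24negTomato+ cells, where all 3 libraries were above the Tomatoneg library of the same number, and -1.33 in CD24+Tomato+ cells, where all 3 were below. Neither passed the limma test (adjusted P = 0.524 and 0.134), both share the Tomatoneg libraries, the tables were scaled separately, and the difference itself was not tested. Of 17 fits, Trib3 passed in 2 in CD24+Tomato+ cells, those with quantile normalization and with array weights, and in none in CD24negTomato+ cells.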

How the results depend on the processing

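For the 40 members in CD24negTomato+ cells, the count of calls was 0, against 2 (5%) with a pseudocount of 10, 2 (5%) after quantile normalization, 4 (10%) with array weights, 6 (15%) with the replicate block and 9 (22.5%) with the block and without pair 1, beside 3.09%, 3.68%, 11.3%, 7.3% and 14.5% of all genes. Leaving out a library gave 0 (beside 0.0671% to 0.954% of all genes) to 2 (5%, beside 6.83%), with 2 without Tomatoneg replicate 1. Their median of 0.29 was 0.091 with equal library totals and 0.20 to 0.34 without single libraries. The count in CD24+Tomato+ cells was 5, against 10 (25%, 9 of them higher) after quantile normalization, 20 (50%, 17 higher) with array weights, 17 (42.5%) with the block and 16 (40%) with the block and without pair 1, beside 14.6%, 32.7%, 20.8% and 23.7% of all genes. It was 1 to 8 without single libraries. The 1 (Creb3l1, 2.5%, beside 0.987% of all genes) came without CD24+Tomato+ replicate 2, and the 8 (20%, beside 10%) without Tomatoneg replicate 3. The median of 0.59 was 0.77 after quantile normalization, 0.44 with array weights and 0.49 to 0.76 without single libraries. The other ER lists held 6 calls in CD24negTomato+ cells (4.76%, beside 1.32% of all genes). They held 2 (1.59%, beside 1.18%) with equal totals, 3 (2.38%, beside 2.17%) without the variance trend and 16 (12.7%, beside 11.3%) with array weights. With the block they held 20 (15.9%, beside 7.3%), and 27 (21.4%, beside 14.5%) with the block and without pair 1. Without single libraries they held 0 to 10, with 10 (7.94%, beside 6.83%) without Tomatoneg replicate 1. Leaving out any CD24negTomato+ library left at most 1 (0.794%), beside 0.0671% to 0.328% of all genes. In CD24+Tomato+ cells the other ER lists held 20 (15.9%, beside 12.9% of all genes). They held 11 (8.73%, beside 10.6%) without the trend and 48 (38.1%, beside 32.7%) with array weights. With the block they held 38 (30.2%, beside 20.8%), and 44 (34.9%, beside 23.7%) with the block and without pair 1. Without single libraries they held 3 (2.38%, beside 0.987%, without CD24+Tomato+ replicate 2) to 21 (16.7%, beside 17.2%, without Tomatoneg replicate 1). The cause of these shifts was not tested.

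Ddit3 in CD24+Tomato+ cells (-0.03) turned to 0.15 with the block and without pair 1 and ranged from -0.22 to 0.30 without single libraries. Of 576 alternatives for 36 values of named members, 502 kept direction and side of the threshold, 9 lost the call, 62 gained one and 3 reversed. The replicate block removed no member's call. Of all genes called in CD24negTomato+ cells, 134 of 177 were higher, against 98 of 158 with equal totals and 304 of 494 after quantile normalization, and in CD24+Tomato+ cells 1113 of 1791, against 991 of 2027 after quantile normalization. Quantile normalization moved the median of all genes from 0.08 to -0.05 and from 0.16 to -0.02. The fit without pair 1 was chosen after seeing the data, array weights did not converge in 1 of the 2 fits, and edgeR was not run because whole reads could not be recovered. With 3 libraries a group, intervals are wide, and depth limits only the least abundant members, Derl3 and Trib3.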
